A study of Mus musculus with 3 samples.

Results

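The transforming growth factor beta (TGF-β) ligands, receptors and regulators of mouse cardiac non-cardiomyocytes were followed from the healthy heart to heart failure. They comprised 10 genes of the 27998 listed, which were chosen by name with earlier results of these data known. The ligand genes were *Tgfb1*, *Tgfb2* and *Tgfb3*, with the latency protein gene *Ltbp4*. The others were the receptors *Tgfbr1*, *Acvrl1* and *Tgfbr2*, the co-receptors *Tgfbr3* and *Eng*, and the inhibitor *Smad7*. All 10 were detected. TGF-β is secreted in a latent form that is held in the matrix through latent TGF-β binding proteins and is then released, often by integrins. The active ligand brings together type II and type I receptor kinases, which phosphorylate SMAD proteins that act on target genes. In the heart the pathway is known for driving matrix production by fibroblasts (FBs), and in endothelial cells (ECs) the type I receptor encoded by *Acvrl1* and its co-receptor endoglin also respond to BMP9 and BMP10.

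Single-cell RNA-seq libraries of unselected ventricular non-cardiomyocytes from wild-type C57BL/6JJcl mice were compared, with 1 library per phase. The healthy heart stands at 0 weeks, adaptive hypertrophy at 2 weeks and heart failure at 12 weeks of transverse aortic constriction (TAC), a ligature on the aortic arch that loads the left ventricle with pressure. The operated mice were males aged 8 weeks at operation, the healthy library is not labelled as sham-operated, and the number of animals per library was not given in the sources used here. Because each phase is a single library, phase cannot be told apart from library, no p-value was computed, and all intervals given are 95% intervals that cover counting error only.

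The libraries held 3892, 2231 and 792 cells with medians of 2589, 1495 and 1434 unique molecular identifiers (UMIs, each standing for 1 captured transcript) per cell at 0, 2 and 12 weeks. The share of cells with over 10% mitochondrial UMIs was 5.04%, 9.32% and 17.2%, and between 1 and 5 barcodes were shared by any pair of libraries. Cells were put in a class by the summed UMIs of marker genes. This gave 1101, 1745 and 298 ECs, 1252, 99 and 193 FBs, 422, 72 and 40 mural cells (smooth muscle cells and pericytes), and 950, 191 and 161 blood cells at 0, 2 and 12 weeks. The remaining cells were neural (47, 21 and 12) or unassigned (120, 103 and 88). Markers kept out of the gate (*Fabp4*, *Gpihbp1*, *Ly6c1* and *Tie1* for ECs) summed to 20524, 30953 and 22925 CPM (UMIs of the genes scaled to a library of 1e+06 UMIs) in the EC gate against 455, 683 and 314 CPM in the FB gate. The mural gate carried 2785, 4736 and 2410 CPM of these EC markers, so EC transcripts were present in the mural class, and the hemoglobin gene *Hbb-bt* was among the 10 genes that most set it apart in the healthy library. Cardiomyocyte markers in the EC gate summed to 644, 508 and 170 CPM, and the dissociation stress genes to 20534, 16158 and 15068 CPM in ECs and 13677, 10563 and 15213 CPM in FBs. A level below is the CPM of a gene over all UMIs of that class.

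The promoters shown are those of *Eng* and *Ltbp4*, because both genes were past 1.5-fold higher in the ECs of the 12-week library than in the healthy ECs. RefSeq promoter windows (GRCm38.p6) matched 6 of the 10 genes. The 170 bases from 250 to 81 before the RefSeq start are printed 5′ to 3′ on the gene's strand. They span chr2:32646345-32646514 (plus strand) for *Eng* and chr7:27337693-27337862 (minus strand) for the most upstream of the 3 listed *Ltbp4* starts. The windows stop at base 81 because GENCODE gives the next base of *Ltbp4* as exon. In GENCODE the *Ltbp4* gene therefore begins directly after its printed window. Capitals mark CAGAC, a SMAD-binding element core, and GGGCGG, a GC box, each searched on both strands.
Eng: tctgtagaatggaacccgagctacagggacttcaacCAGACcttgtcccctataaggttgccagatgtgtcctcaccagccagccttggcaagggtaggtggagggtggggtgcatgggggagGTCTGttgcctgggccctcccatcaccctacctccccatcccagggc
Ltbp4: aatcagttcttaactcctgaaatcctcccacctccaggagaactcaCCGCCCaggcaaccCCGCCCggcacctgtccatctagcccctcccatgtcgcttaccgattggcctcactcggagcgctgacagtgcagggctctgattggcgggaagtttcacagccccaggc
The *Eng* window held 2 matches to CAGAC and none to GGGCGG, and the *Ltbp4* window held 2 matches to GGGCGG and none to CAGAC. Among all 32851 windows of this length, 31.8% held CAGAC and 19.5% held GGGCGG, which do not overlap each other in these windows. Neither window held CCGGAA, an ETS factor core (6.39% of all windows), or TATAAA, the TATA box (8.04%). A match is a description of letters only. The libraries read the 3′ ends of transcripts, so the 3 *Ltbp4* starts could not be told apart.

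*Ltbp4* showed the broadest differences between phases. In ECs, FBs and mural cells alike, the 2-week level was about double the healthy level, and in ECs the higher level was also found at 12 weeks. *Ltbp4* (chr7:27305136-27337692, minus strand) encodes latent TGF-β binding protein 4, an extracellular matrix protein that binds latent TGF-β1 and takes part in elastic fiber assembly. Its level in ECs was 428 CPM (406 to 451) in the healthy library, 918 CPM (886 to 951) at 2 weeks and 895 CPM (812 to 984) at 12 weeks. In FBs the levels were 1104 CPM (1072 to 1136), 2232 CPM (2057 to 2418) and 1653 CPM (1554 to 1757). In mural cells they were 379 CPM (349 to 411), 832 CPM (720 to 956) and 304 CPM (216 to 416). FBs were highest in every phase, both TAC libraries lay above the healthy one in ECs and FBs, and only the 2-week library stood higher in mural cells. Blood cells held 32.2, 26.9 and 35.6 CPM, far below the other classes in every library, and serve as the background level.

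As ratios, *Ltbp4* at 2 weeks was 2.14-fold the healthy level in ECs (2.01 to 2.28), 2.02-fold in FBs (1.85 to 2.20) and 2.19-fold in mural cells (1.86 to 2.58). At 12 weeks it was 2.09-fold in ECs (1.87 to 2.33), 1.497-fold in FBs (1.40 to 1.60), just under the limit of 1.5, and 0.802-fold in mural cells (0.565 to 1.11). Both ratios of a class share the healthy library. The FB marker list of the gate summed to 348, 103 and 430 CPM in the EC class at 0, 2 and 12 weeks, lowest at 2 weeks. Without ECs that held any FB marker UMI the EC ratios were 2.00 and 1.87. The part of FB transcripts in the EC ratios was not tested otherwise. The mural class carried more EC check-marker UMIs at 2 weeks (4736 against 2785 CPM), and their part in its ratio was not tested.

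The 2-week difference of *Ltbp4* was present in each larger sub-gate of ECs. Sub-gates were drawn inside a class from further marker lists. In capillary ECs the *Ltbp4* level was 324, 642 and 508 CPM at 0, 2 and 12 weeks, in arterial ECs 855, 2006 and 1514 CPM, and in venous ECs 648, 1132 and 1398 CPM, the last from 9 cells. The 2-week ratio was 1.98 in capillary, 2.35 in arterial and 1.75 in venous ECs, and 3.39 in the ECs that met no sub-gate. ECs of no sub-gate were shallower, with medians of 1823 and 965 UMIs at 0 and 2 weeks against 2273 and 1668 in capillary ECs. FBs of no sub-gate had a median of 1128 UMIs at 2 weeks, against 3026 in activated FBs. Entry to a sub-gate therefore went with depth in these classes, and the part of depth in the ratios was not tested. Arterial ECs lay above capillary ECs in every phase. Pericytes had a 2-week ratio of 2.74 (14 cells at 2 weeks), smooth muscle cells 1.75, activated FBs 1.82 and FBs of no sub-gate 2.38. All of these ratios were above 1.5.

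**Figure D1:**
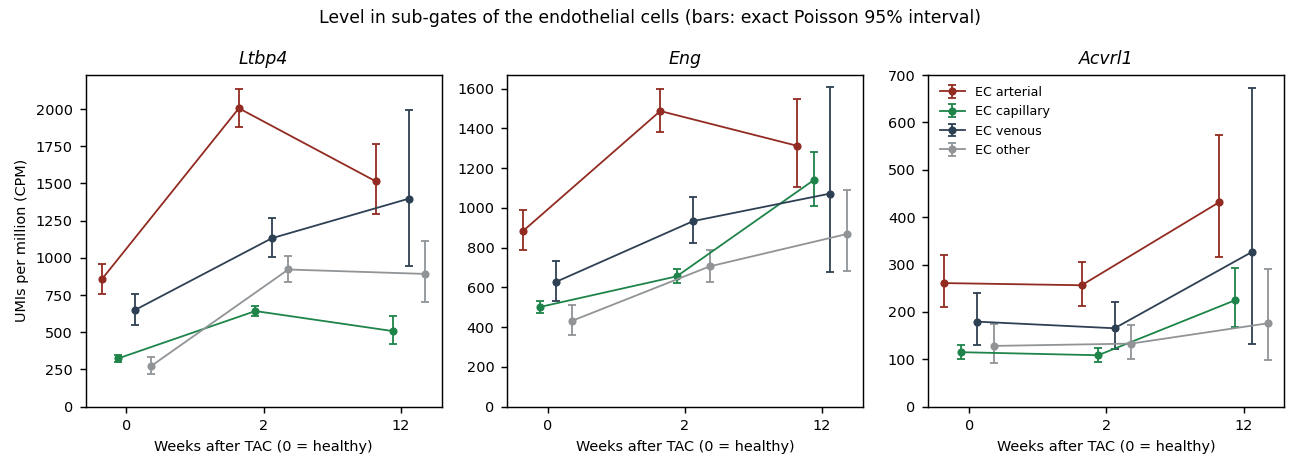
Levels of *Ltbp4*, *Eng* and *Acvrl1* (CPM) in sub-gates of the ECs against weeks after TAC, with exact Poisson 95% intervals as bars and 1 library per phase. For *Ltbp4* all 4 lines lie higher at 2 weeks than in the healthy library, while *Acvrl1* is higher only at 12 weeks.

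After thinning each cell to 1000 UMIs, 33.2% of healthy ECs, 50.2% of 2-week ECs and 48.0% of 12-week ECs held an *Ltbp4* UMI (1101, 1297 and 198 cells, with 0, 448 and 100 shallower cells left out). Without thinning the shares were 58.2%, 67.3% and 58.1%. Blood cells gave 2.95%, 2.76% and 3.57% after thinning. In FBs the thinned shares were 64.1%, 85.9% and 84.8%. Of all *Ltbp4* UMIs, FBs held 64.6% in the healthy library, 14.6% at 2 weeks and 66.1% at 12 weeks, and ECs held 19.6%, 75.0% and 27.2%. The 2-week library was mostly ECs, so these UMI shares follow the numbers of cells recovered.

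*Tgfb1*, the gene of the TGF-β1 ligand (chr7:25687002-25705077, plus strand), was highest in blood cells and ECs, and its FB level was higher in both TAC libraries. Blood cells had 272 CPM (253 to 292) at 0 weeks, 450 CPM (387 to 520) at 2 weeks and 277 CPM (226 to 336) at 12 weeks. ECs had 214, 236 and 247 CPM, with intervals that overlapped between neighboring phases. FBs had 78.6 CPM (70.3 to 87.6), 145 CPM (103 to 198) and 135 CPM (108 to 168), so both TAC libraries lay above the healthy one. The ratio in FBs was 1.84 (1.29 to 2.57) at 2 weeks, with 1.72 (1.34 to 2.20) at 12 weeks, and in blood cells 1.65 (1.40 to 1.95) at 2 weeks. Within macrophages the 2-week ratio was 1.38 (1.08 to 1.75), under 1.5. In monocytes or dendritic cells it was 1.98 (1.33 to 2.97), with levels of 358 and 709 CPM at 0 and 2 weeks. In blood cells of no sub-gate, 5.47% and 26.2% of the class at these times, it was 1.80 (1.10 to 2.94). Macrophages fell from 86.8% to 52.4% of the blood class between these libraries, and monocytes or dendritic cells rose from 3.16% to 18.3%, so the make-up of the class moved with its *Tgfb1* level. In mural cells the 2-week ratio of 1.56 had an interval that included 1 (0.977 to 2.41). In the healthy library the order was blood cells, ECs, FBs and mural cells, and FBs and mural cells did not differ beyond counting error.

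*Tgfb1* also varied inside the FBs. FBs of the activated sub-gate had 1.86 times the level of the other FBs in the healthy library (1.49 to 2.33). The activated sub-gate made up 24.0%, 56.6% and 34.2% of FBs at 0, 2 and 12 weeks, so the make-up of the class moved together with the FB ratio. Within activated FBs the *Tgfb1* ratio was 1.41 (0.934 to 2.08) at 2 weeks and 1.46 (1.05 to 2.01) at 12 weeks. Both lay below the ratios of the whole class, which their intervals included. FBs of no sub-gate had a 2-week ratio of 2.23 (0.870 to 4.79) and adventitial FBs a 12-week ratio of 2.11 (1.18 to 3.56), both above that of the class. The part that make-up has in the class ratio was not tested.

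*Tgfb2* and *Tgfb3*, the genes of the other TGF-β ligands, were expressed mainly in FBs and mural cells, with little in blood cells. *Tgfb2* (chr1:186622792-186705989, minus strand) stood at 78.3, 108 and 60.6 CPM in FBs, 91.0, 101 and 62.4 CPM in mural cells and 17.3, 17.0 and 18.9 CPM in ECs. No class with enough UMIs was past 1.5-fold for *Tgfb2* in either TAC library. The arterial sub-gate had 5.84 times the *Tgfb2* level of the other healthy ECs (3.27 to 10.2), and lymphatic ECs 8.93 times (25 cells, 11 UMIs). Among ECs, *Tgfb2* was therefore unevenly spread, with 66.6 CPM in arterial and 6.45 CPM in capillary cells. Blood cells held 5, 0 and 1 UMIs, and 0 UMIs at 2 weeks allows up to 7.33 CPM.

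*Tgfb3* (chr12:86056745-86079041, minus strand) stood at 94.7 CPM (85.6 to 105), 171 CPM (125 to 228) and 124 CPM (98.3 to 155) in FBs. In mural cells it was 130, 105 and 62.4 CPM, and in ECs 10.2, 6.26 and 6.29 CPM. FBs were lowest in the healthy library, whereas mural cells were highest there. The FB ratio was 1.80 (1.30 to 2.45) at 2 weeks, with 1.31 (1.02 to 1.68) at 12 weeks. The 2-week ratio was 1.43 (0.989 to 2.02) in activated FBs and 1.07 (0.343 to 2.57) in FBs of no sub-gate, both under 1.5. Adventitial FBs, with 3 cells at 2 weeks, had a 2-week ratio of 1.60 (0.0399 to 9.15) from 81 and 1 UMIs. Their 12-week ratio was 1.95 (1.02 to 3.47). In ECs the 2-week ratio was 0.614, from 33 and 21 UMIs, with an interval that included 1 (0.338 to 1.09). Removing ECs with an FB marker UMI moved it to 0.930, and in capillary ECs it was 0.422, from 24 and 10 UMIs. In mural cells the 12-week ratio was 0.481 (0.205 to 0.965), from 204 and 8 UMIs in 422 and 40 cells, and 0.686 (0.291 to 1.38) within smooth muscle cells. Pericytes held 41 and 0 UMIs, a 12-week ratio of 0 (0 to 0.877), and made up 24.2% and 42.5% of the class. As with *Tgfb1*, healthy activated FBs had more *Tgfb3* than other FBs, at 1.95 times (1.59 to 2.39), and the rise of the activated share from 24.0% to 56.6% at 2 weeks moved with the FB ratio.

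**Figure D2:**
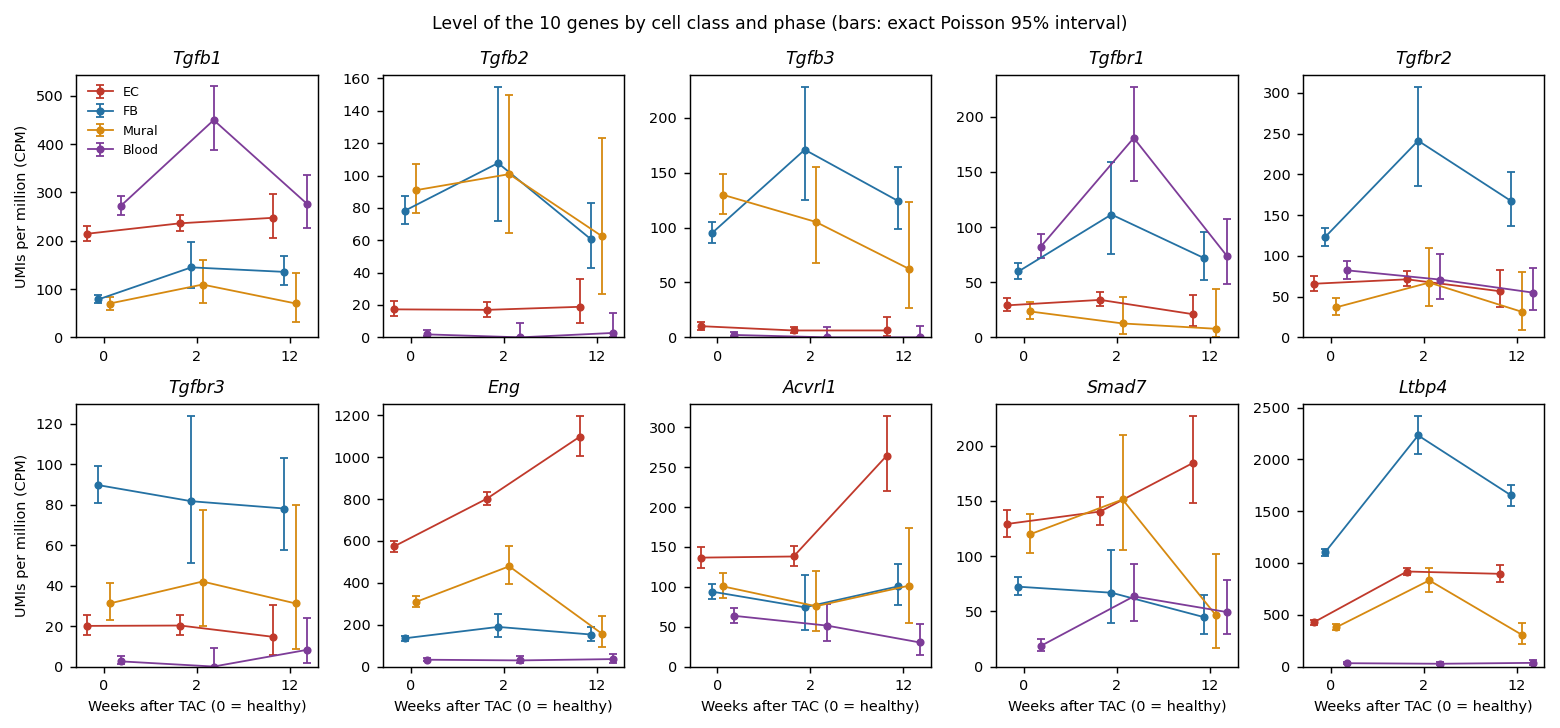
Level of each of the 10 genes (CPM over the UMIs of the class) against weeks after TAC in ECs, FBs, mural cells and blood cells, with exact Poisson 95% intervals as bars and 1 library per phase. *Ltbp4* is highest in FBs and *Eng* in ECs in all 3 libraries, and the mural intervals at 12 weeks, from 40 cells, are wide.

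The signaling receptors differed by class. *Tgfbr1* and *Tgfbr2*, which encode the type I and type II TGF-β receptor kinases, were higher in FBs than in ECs in every phase, whereas *Acvrl1*, which encodes the endothelial type I receptor ALK1, was highest in ECs. *Tgfbr1* (chr4:47353222-47414931, plus strand) stood at 59.8 CPM (52.6 to 67.7), 111 CPM (75.2 to 159) and 71.7 CPM (52.3 to 96.0) in FBs, and at 29.0, 34.0 and 20.97 CPM in ECs. In blood cells it was 82.2 CPM (71.8 to 93.7), 181 CPM (142 to 227) and 74.0 CPM (48.8 to 108). In both FBs and blood cells the 2-week library was the highest. The 2-week ratio was 1.86 in FBs (1.23 to 2.73) and 2.20 in blood cells (1.67 to 2.87). Macrophages carried most of the blood signal, with 3.78 times the level of the other healthy blood cells, and the ratio within macrophages was 3.26 at 2 weeks and 1.99 at 12 weeks. Macrophages made up 86.8%, 52.4% and 28.6% of the blood class at 0, 2 and 12 weeks, so their share fell while their own *Tgfbr1* level was higher in both TAC libraries. Mural cells held 37, 3 and 1 *Tgfbr1* UMIs.

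*Tgfbr2* (chr9:116084293-116175360, minus strand) stood at 123 CPM (113 to 134), 241 CPM (186 to 308) and 167 CPM (137 to 203) in FBs. It was 65.8, 71.2 and 56.6 CPM in ECs, 82.2, 70.9 and 54.8 CPM in blood cells and 36.9, 67.2 and 31.2 CPM in mural cells. Only FBs had a 2-week level whose interval lay clear of the healthy one, and their 12-week interval also lay above it. The FB ratio was 1.96 (1.49 to 2.54) at 2 weeks, with 1.36 (1.09 to 1.68) at 12 weeks. The mural ratio of 1.82 at 2 weeks had an interval that included 1 (0.978 to 3.21). Within activated FBs the 2-week ratio was 2.28, larger than in the class as a whole, and in FBs of no sub-gate it was 1.38 (0.678 to 2.51). In blood cells the ratios were 0.862 and 0.667, but within macrophages they lay on the other side of 1. The macrophage ratio was 1.46 at 2 weeks (0.942 to 2.19) and 1.66 at 12 weeks (0.892 to 2.85), with intervals that included 1. In healthy ECs, *Tgfbr2* was 5.30 times higher in the 25 lymphatic cells and 3.51 times higher in the 21 endocardial cells than in the ECs outside each sub-gate.

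*Acvrl1* (chr15:101128522-101145336, plus strand) was level in ECs from healthy to 2 weeks and higher at 12 weeks. The EC levels were 137 CPM (124 to 150), 138 CPM (126 to 151) and 264 CPM (220 to 315). The 12-week library alone was high, and its interval did not overlap the other two. The ratio was 1.01 at 2 weeks (0.885 to 1.15) and 1.93 at 12 weeks (1.57 to 2.36). It was 1.96 in capillary and 1.65 in arterial ECs at 12 weeks. In the 79 ECs of no sub-gate it was 1.37 (0.705 to 2.54), under 1.5, and in 9 venous ECs 1.82 (0.692 to 4.07). Both of these intervals included 1. FBs had 94.0, 74.3 and 100.4 CPM, mural cells 100.5, 75.6 and 101 CPM, and neither class was past 1.5-fold. Blood cells had 63.6, 51.3 and 30.2 CPM, with a 12-week ratio of 0.474 (0.232 to 0.870) from 174 and 11 UMIs. Within macrophages, whose share of the class fell from 86.8% to 28.6%, that ratio was 1.07, from 141 and 6 UMIs.

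*Eng*, the gene of endoglin, a co-receptor that is abundant on ECs (chr2:32646595-32682669, plus strand), was higher in ECs with each later library. Its EC level was 574 CPM (548 to 600) in the healthy library, 802 CPM (772 to 833) at 2 weeks and 1099 CPM (1007 to 1197) at 12 weeks. The 3 intervals did not overlap. The ratio was 1.40 at 2 weeks (1.32 to 1.48), under the limit of 1.5, and 1.92 at 12 weeks (1.73 to 2.11). After thinning, 42.0%, 47.6% and 59.6% of ECs held an *Eng* UMI, against 2.74%, 2.76% and 1.79% of blood cells. Without thinning the EC shares were 68.9%, 64.9% and 68.1%.

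*Eng* was read in the larger EC sub-gates as well. Capillary ECs had 501, 655 and 1140 CPM, with ratios of 1.31 at 2 weeks and 2.28 at 12 weeks. Arterial ECs had 884, 1487 and 1312 CPM, with ratios of 1.68 and 1.48. The capillary level was highest at 12 weeks, and the arterial intervals of the 2 TAC libraries overlapped. The difference between the sub-gates was not tested. Venous ECs had ratios of 1.49 and 1.71, and ECs of no sub-gate 1.63 and 2.01. The 21 endocardial ECs of the healthy library had 3.81 times the *Eng* level of the other ECs, and the 25 lymphatic ECs 0.338 times. In endocardial ECs the ratios lay below 1, at 0.0993 (0.00250 to 0.561) at 2 weeks and 0.259 (0.122 to 0.490) at 12 weeks. These came from 160, 1 and 10 UMIs in 21, 2 and 5 cells at 0, 2 and 12 weeks. Mural cells had 309 CPM (282 to 338), 479 CPM (395 to 576) and 156 CPM (95.3 to 241), with ratios of 1.55 (1.25 to 1.90) and 0.504 (0.305 to 0.788). The 2-week ratio was 1.78 in smooth muscle cells and 1.16 in pericytes, which is under 1.5. The EC check list was 2785, 4736 and 2410 CPM in the mural gate, highest and lowest in the same libraries as *Eng*. Its part in the mural *Eng* values was not tested. FBs had 135, 189 and 153 CPM.

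*Tgfbr3* (chr5:107106570-107289629, minus strand) is the gene of betaglycan, a co-receptor that presents TGF-β2 to the signaling receptors. Among the compared classes its level was highest in FBs in every phase. The order of FBs over mural cells went beyond counting error in the healthy library only. The interval of their ratio included 1 at 2 weeks (0.883 to 4.60) and at 12 weeks (0.918 to 9.55). FBs had 89.7 CPM (80.8 to 99.2), 81.7 CPM (51.2 to 124) and 78.1 CPM (57.8 to 103), mural cells 31.2, 42.0 and 31.2 CPM, and ECs 20.1, 20.3 and 14.7 CPM. No ratio was past 1.5-fold in these classes. The FB ratio was 0.911 (0.564 to 1.40) at 2 weeks, with 0.871 (0.633 to 1.18) at 12 weeks, so a difference inside these intervals was not detectable at this depth. Blood cells held 7, 0 and 3 UMIs. Endocardial ECs had 5.68 times the level of the other healthy ECs, from 8 UMIs.

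*Smad7* encodes an inhibitory SMAD that is induced by TGF-β and blocks the type I receptor (chr18:75367529-75395935, plus strand). In ECs it stood at 129 CPM (117 to 142), 140 CPM (128 to 154) and 185 CPM (148 to 227), and the 12-week ratio of 1.43 (1.12 to 1.80) was under the limit of 1.5. In FBs it was 72.3 CPM (64.4 to 81.0), 66.9 CPM (39.6 to 106) and 44.6 CPM (29.7 to 64.5), with a 12-week ratio of 0.617 (0.403 to 0.910) from 300 and 28 UMIs. In mural cells it was 120, 151 and 46.8 CPM, with a 12-week ratio of 0.391 (0.142 to 0.868) from 188 and 6 UMIs. The 12-week library was the lowest in FBs and mural cells and the highest in ECs. Blood cells had 18.6 CPM (13.9 to 24.5), 63.5 CPM (41.5 to 93.1) and 49.3 CPM (29.2 to 78.0), with ratios of 3.41 (2.04 to 5.57) and 2.65 (1.46 to 4.61). The blood class changed its make-up at the same time. T or NK cells, which had 21.5 times the *Smad7* level of the other healthy blood cells from 6 UMIs in 7 cells, numbered 7, 0 and 19, and B cells numbered 32, 0 and 47. Within macrophages the *Smad7* ratio was 4.08 at 2 weeks, from 31 and 11 UMIs, and 0.811 at 12 weeks, from 31 and 1 UMIs.

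**Figure D3:**
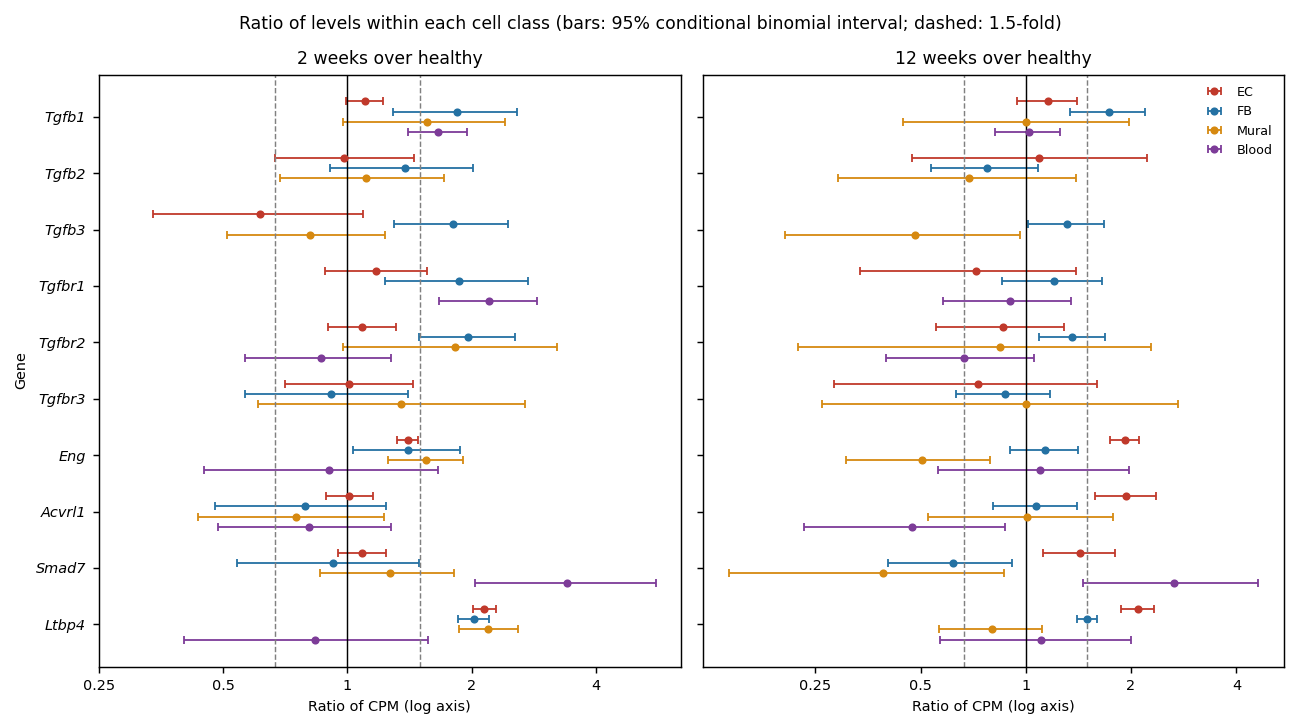
Ratio of levels (2 weeks or 12 weeks over healthy, log axis) of the genes with at least 50 UMIs over both phases in a class, with conditional binomial 95% intervals and dashed lines at 1.5-fold. *Ltbp4* lies beyond 1.5-fold at 2 weeks in ECs, FBs and mural cells, and the mural points at 12 weeks lie between 0.391 and 1.01.

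Counted over the genes that had at least 50 UMIs over both phases, at least 1.5-fold differences were found as follows. In ECs, 2 of 10 genes passed at 2 weeks (*Ltbp4* higher and *Tgfb3* lower), where 22.9% of all 8440 genes tested passed, and 3 of 9 at 12 weeks (*Eng*, *Acvrl1* and *Ltbp4*, all higher), where 32.4% of 6958 passed. In FBs, 5 of 10 passed at 2 weeks (*Tgfb1*, *Tgfb3*, *Tgfbr1*, *Tgfbr2* and *Ltbp4*, all higher), where 39.9% of all genes passed, and 2 of 10 at 12 weeks (*Tgfb1* higher and *Smad7* lower), where 25.7% passed. The 5 FB genes at 2 weeks were all higher, while 18.9% of all genes were higher and 20.98% lower. The median log2 ratio of the 10 genes in FBs at 2 weeks was 0.67, against -0.02 for all genes tested.

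In mural cells, 4 of 9 genes passed at 2 weeks (*Tgfb1*, *Tgfbr2*, *Eng* and *Ltbp4*, all higher), where 30.2% of all genes passed, and 3 of 9 at 12 weeks (*Tgfb3*, *Eng* and *Smad7*, all lower), where 42.8% passed. In blood cells, 3 of 7 passed at 2 weeks (*Tgfb1*, *Tgfbr1* and *Smad7*, all higher), where 38.8% of all genes passed, and 2 of 7 at 12 weeks (*Smad7* higher and *Acvrl1* lower), where 42.4% passed. Over the 4 classes, a change of 1 gene would bring each of these shares to within a few points of the background or past it. The median log2 ratio in ECs was 0.12 at 2 weeks and 0.21 at 12 weeks, against 0.02 and 0.07 for all genes. Relative to all genes tested, the *Ltbp4* ratio in ECs stood above 97.7% of genes at 2 weeks and 95.3% at 12 weeks, and in FBs above 93.3% at 2 weeks.

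**Figure D4:**
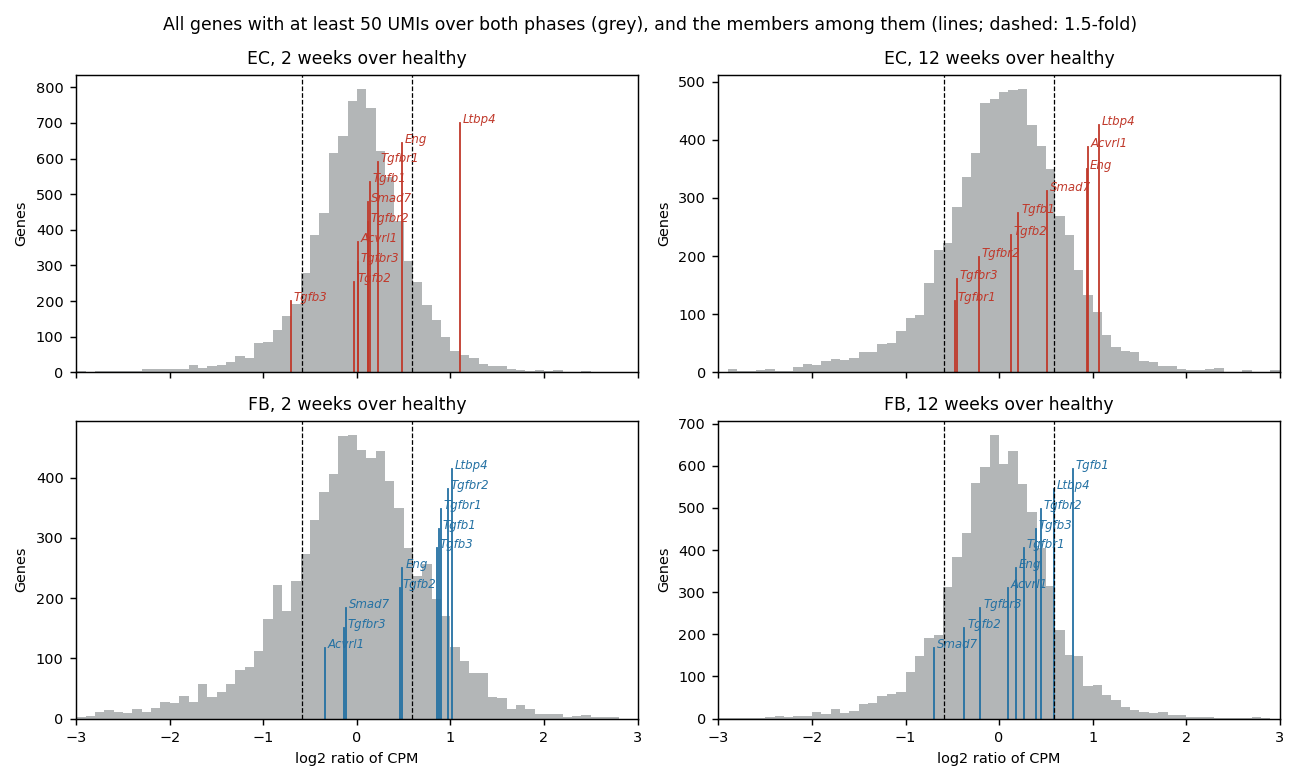
Distribution of the log2 ratio of levels over all genes with at least 50 UMIs over both phases (grey bars, number of genes) in ECs and FBs at 2 and 12 weeks over healthy, with the 10 TGF-β genes as lines and dashed lines at 1.5-fold. *Ltbp4* lies in the right tail for ECs at both times, and *Tgfb1*, *Tgfb3*, *Tgfbr1*, *Tgfbr2* and *Ltbp4* lie together on the right in FBs at 2 weeks.

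A list of 51 further pathway genes was read the same way. It was made of SMADs, SMAD regulators, latency and activation factors, other receptors and antagonists, and TGF-β target genes. The list was chosen with earlier results of these data known, so its shares beside those of all genes are descriptions only. In FBs at 2 weeks, 25 of the 47 with enough UMIs were at least 1.5-fold higher and 5 lower, which is 63.8% of the list against 39.9% of all genes. The 3 with the largest ratios were the matricellular target *Ctgf* (169 to 1489 CPM, 8.81-fold), the matricellular gene *Postn* (757 to 4267 CPM, 5.64-fold) and the latent TGF-β binding protein gene *Ltbp2* (81.7 to 442 CPM, 5.41-fold). The 3 lowest were *Zfyve9*, an adaptor that brings SMADs to the receptor (0.308-fold, from 100 and 2 UMIs), the serine protease gene *Htra1* (0.324-fold) and *Fstl3*, a follistatin-like antagonist (0.531-fold, from 116 and 4 UMIs). Among the genes counted, *Col1a1* (2.30-fold) and *Dcn* (0.642-fold) are FB gate markers, and *Postn* and *Cilp* (3.86-fold) belong to the activated sub-gate list. The activated sub-gate made up 24.0% of healthy FBs and 56.6% of 2-week FBs. The part of these markers and of class make-up in the counts was not tested. At 12 weeks in FBs, 8 were higher and 5 lower of 47, or 27.7%, close to the 25.7% of all genes. *Ctgf* (2.82-fold), the inhibitory SMAD gene *Smad6* (2.28-fold) and *Cilp*, a matrix protein gene (2.09-fold), led the higher ones, and *Fn1*, the fibronectin gene (0.435-fold), *Zfyve9* (0.595-fold) and *Dab2*, an endocytic adaptor (0.615-fold), led the lower ones.

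In ECs at 2 weeks, 5 of 39 pathway genes were higher and 10 lower, while 11.6% of all genes were higher and 11.3% lower, so the number higher was at the background. *Lrrc32*, which encodes a cell surface anchor of latent TGF-β (39.9 to 73.3 CPM, 1.84-fold), *Smad6* (30.9 to 56.6 CPM, 1.83-fold) and the ubiquitin ligase gene *Smurf1* (10.2 to 18.2 CPM, 1.78-fold) were the highest. *Htra3* (0.107-fold), *Dcn* (0.115-fold) and *Acta2* (0.150-fold) were the lowest. *Dcn* and *Acta2* are FB and mural markers of the gate, and the FB and mural gate lists in ECs were also lower at 2 weeks, at 103 and 60.8 CPM against 348 and 198 CPM. In ECs at 12 weeks, 8 of 32 were higher and 3 lower, or 34.4%, close to the 32.4% of all genes. The highest were *Postn* (2.38-fold, from 37 and 13 UMIs), *Smad6* (2.31-fold) and the BMP and ALK1 target *Id1* (651 to 1386 CPM, 2.13-fold), and the lowest were *Acvr1*, a BMP type I receptor gene (0.405-fold, from 67 and 4 UMIs), the pseudoreceptor gene *Bambi* (0.520-fold) and *Zfyve9* (0.633-fold). The FB gate list in ECs was 430 CPM in this library. The inhibitory *Smad6* was thus at least 1.5-fold higher in ECs of both TAC libraries, which share the healthy library. In mural cells the counts were 5 higher and 4 lower of 32 at 2 weeks and 3 higher and 14 lower of 31 at 12 weeks, shares of 28.1% and 54.8% against 30.2% and 42.8% of all genes. In blood cells they were 8 and 8 of 26, and 7 and 9 of 27, shares of 61.5% and 59.3% against 38.8% and 42.4%. The FB gate list in blood cells was 262, 53.8 and 398 CPM at 0, 2 and 12 weeks. Its marker *Dcn* was counted at both times (0.172- and 1.59-fold), and the mural marker *Acta2* at 2 weeks (0.267-fold). The part of FB and mural transcripts in these blood counts was not tested.

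Over the 12 groups formed by 4 classes and 3 phases, the genes whose log2(CPM + 1) pattern was most like each member were sought among 8017 genes. *Ltbp4* was closest to *Fbln2*, a fibulin gene (Pearson r = 0.979), *Tgfbr3* to *Ltbp1* (0.978), *Tgfb3* to *Sspn* (0.985) and *Tgfb2* to *Bace1* (0.981). *Eng* was closest to *Hyal2* (0.983) and *Acvrl1* to *Lta4h* (0.958). *Tgfb1* was closest to *Tmsb4x* (0.946), *Tgfbr1* to *Ptgs2* (0.941), *Tgfbr2* to *Itm2c* (0.971) and *Smad7* to *Rapgef1* (0.936). These are descriptions over 12 groups that share 3 libraries.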

How the data were processed

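The authors made droplet-based 3′ (Chromium v2) libraries of non-cardiomyocytes, and deposited raw UMI counts per gene and cell, with no normalization, 1 matrix per phase; per the labels' processing notes, Cell Ranger 2.0.0 and the mm10 genome were used. The members and gene lists were chosen with earlier results of these data known. The minimum of 200 genes per cell took out 8, 8 and 10 cells at 0, 2 and 12 weeks, and no mitochondrial limit was set. A cell entered a class with at least 3 marker UMIs and at least 2 times the sum of any other list. This sets aside mixed cells only where the sums of their lists are similar. The lists differ in abundance, with 6067 CPM of the EC list in healthy ECs and 20460 CPM of the mural list in healthy mural cells. A mixed cell can therefore pass into a class. No doublet caller was run. *Ltbp4* is listed under 2 identifiers, and the one in the GRCm38 annotation (ENSMUSG00000040488) was used, since the other had 0 UMIs. Levels were pooled UMIs as CPM with exact Poisson intervals, ratios had conditional binomial intervals and shares exact Clopper-Pearson intervals, all at 95%. A ratio was called at 1.5-fold or more either way with at least 50 UMIs over both phases, and its background is the share of all genes called. A count of 0 was taken to allow 3 UMIs. A sub-gate needed UMIs of at least 2 genes of its list, and its ratios are given where both phases held at least 20 UMIs together. Members are all named, pathway genes are the 3 largest ratios each way, and like-pattern genes had at least 200 UMIs and were no gate markers. Gene positions are from GENCODE (GRCm38). Statistics were computed in scipy 1.17.1 (Python 3.11.15), and the ratio step was tested on simulated data. Alternatives covered the gate, the cell filters, the level, the centring, the UMI minimum and cells with cardiomyocyte markers, and 4 more were added after the data were seen.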

Additional observations from a re-analysis of the deposited data

Results flagged for a closer look

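For 4 genes, classes lay past 1.5-fold in opposite directions in the same TAC library. *Tgfb3* at 2 weeks was 0.614-fold the healthy level in ECs (0.338 to 1.09) and 1.80-fold in FBs. The EC ratio was 0.930 without ECs that held an FB marker UMI, and the FB ratio was 1.43 in activated FBs and 1.07 in FBs of no sub-gate, so neither stayed past 1.5-fold there. *Eng* at 12 weeks was 1.92-fold in ECs and 0.504-fold in mural cells. *Acvrl1* at 12 weeks was 1.93-fold in ECs and 0.474-fold in blood cells, but 1.07-fold in macrophages and 0.906-fold in blood cells of no sub-gate, from 6 and 3 UMIs at 12 weeks. *Smad7* at 12 weeks was 0.617-fold in FBs, 0.391-fold in mural cells and 2.65-fold in blood cells, with 0.811-fold in macrophages from 1 UMI at 12 weeks. The differences between classes were not tested, since each phase is 1 library.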

How the results depend on the processing

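Of the 71 ratios with at least 50 UMIs, none that was called changed direction in any setting tried. In the settings first listed, 423 recomputed ratios stayed within the interval of the reported ratio and 3 did not, and in the settings added later 82 did and 25 did not. Counts of genes past 1.5-fold moved as follows. In ECs at 2 weeks (2 as reported), 1 remained after removal of cells with cardiomyocyte markers, and 1 each in the settings chosen after seeing the data: without ECs with an FB marker UMI, after thinning to 1000 UMIs, in capillary ECs alone, and at 2-fold. The gene that passed in each of these 5 was *Ltbp4*. In ECs at 12 weeks (3), 5 passed without cells over 10% mitochondrial, with *Tgfbr1* and *Tgfbr3* lower, and 1 at 2-fold. In FBs at 2 weeks (5), 1 passed at 2-fold. In FBs at 12 weeks (2), 4 passed after thinning and 0 at 2-fold. In mural cells at 2 weeks (4), 1 passed after thinning and 1 at 2-fold; at 12 weeks (3), 5 passed with the mean over cells and 1 after thinning. In blood cells at 2 weeks (3), 1 passed after thinning; at 12 weeks (2), 4 passed with only 1 UMI required in each phase and 1 after thinning. Thinning leaves fewer UMIs, so fewer genes can reach 50, and it also leaves out cells under 1000 UMIs. The count in FBs at 12 weeks was nevertheless larger after thinning, and the cause of these moves was not tested. With the mean over cells, the healthy FB over EC ratio was 3.39 for *Tgfb2* (4.53 as reported) and 2.85 for *Ltbp4* (2.58). No paired analysis was possible because each phase has 1 library. Phase and library cannot be told apart, and the 40 mural cells and 99 FBs limit the 12-week and 2-week values.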

Other observations

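Neural cells (47, 21 and 12 cells at 0, 2 and 12 weeks) were set aside from the comparisons. In the healthy library they held 19 *Tgfb2* UMIs, a level of 200 CPM (120 to 312), and 29.8% of the cells had one, against 91.0 CPM in mural cells and 78.3 CPM in FBs. In the TAC libraries the neural cells held 2 and 1 *Tgfb2* UMIs. *Ltbp4* stood at 252, 418 and 413 CPM in these cells, from 24, 16 and 9 UMIs, with intervals that overlapped. *Eng* stood at 179, 157 and 322 CPM.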
